A study of Schmidtea mediterranea with 89 samples.

Results

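The 8 libraries of planarian stem cells kept on a soft polyacrylamide gel for 1, 2 or 3 days are described here beside the 3 uncultured libraries of the same experiment. They were chosen by their labels alone, as 11 of the 26 libraries of experiment 3 and of the 89 libraries of the series, and no measured value entered the choice. Each gel day was set against uncultured cells and against the day before it. The series as a whole grew such cells in several formats, and the remaining libraries of experiment 3 (flat and U-bottom plates) entered the fit only to share its estimate of the spread, apart from a short comparison with flat plates.

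The gel groups were wild-type SiRNeoblasts of Schmidtea mediterranea on a 100 Pa gel, with 3 libraries at 1 day, 3 at 2 days and 2 at 3 days. They were set against uncultured wild-type SiRNeoblasts, with 3 libraries. The labels give one serum-containing medium for all cultures, and they do not give the age of the animals, how many animals were pooled or whether each replicate had a culture of its own. The p-values therefore measure how far these libraries differ from each other, and that may be technical. SiRNeoblast is the labels' own name for the sorted cells.

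Neoblasts are the dividing cells of adult planarians and the source of every replaced tissue, and the population holds pluripotent stem cells together with cells already committed to a fate. They have been hard to keep dividing outside the animal, and a soft gel is used to offer a surface nearer to the stiffness of tissue than plastic. The deposited tables list identifiers that start with SMED3 and do not pair them with gene names, so no identity as neoblast, cycling or differentiated cells could be checked from marker genes. Identifiers are printed as deposited, at most 2 higher and 2 lower for a comparison, beside the most abundant ones. RNA was taken in bulk, so fewer cells of a type and less RNA per cell cannot be told apart in any value below.

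Total counts ran from 12814913 to 21204310 in gel libraries, against 17302795 to 21992624 in uncultured libraries. In the deposited table the columns of experiment 3 stand in 2 alphabetical runs, with every uncultured library in the first and every gel library in the second. Nothing in the labels says what the runs stand for. A term for the run could be fitted because flat plates at 2 and 3 days and U-bottom plates at 3 days have libraries in both. That term itself was called for 0 of 20949 identifiers by edgeR (1827 at an unadjusted p under 0.05), and its effect on the gel comparisons is given beside them. One library also stood apart from its group. Measured as the root mean square difference in log2 CPM (counts scaled to library size by edgeR), gel replicate 1 at 2 days was 0.450 and 0.445 from its partners, which were 0.239 from each other.

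A few identifiers held most of the RNA counted, and they held more of it on the gel. The 4 most abundant identifiers took 76.7%, 69.5% and 68.3% of the counts on the gel at 1 day. They took 74.5%, 66.1% and 72.0% at 2 days, then 78.0% and 84.6% at 3 days, against 57.5%, 58.4% and 54.6% in uncultured cells. Every gel library was above every uncultured library, and both libraries of 3 days were above all of 2 days. The mean was 73.7% ± 6.03 on the gel (SD, n = 8) and 56.8% ± 1.99 in uncultured cells (SD, n = 3), a difference of 16.9 percentage points. In an exact two-sided permutation test this gave p = 0.00606, the smallest that 8 against 3 libraries allow, or 0.0364 after Benjamini-Hochberg adjustment over 12 tests. In the exact test, 3 against 3 or 2 against 3 libraries cannot go below p = 0.1. The 3 days against 2 days difference, 10.4 percentage points, reached that floor in the exact test (adjusted p = 0.12), and the 2 days against 1 day difference fell within the spread (exact p = 1).

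Within these 4, SMED30027385 took a larger share on the gel. It held 56.4%, 31.3% and 37.6% of counts at 1 day, 50.3%, 22.6% and 30.6% at 2 days, then 50.7% and 59.9% at 3 days, against 10.4%, 13.7% and 10.8% in uncultured cells. The lowest gel library, replicate 2 at 2 days, was still above the highest uncultured one, and the gel libraries differed widely among themselves. Its log2 fold change against uncultured cells was 2.43 (SE 0.43, adjusted p = 1.01e-04) at 1 day, 2.08 (SE 0.43, adjusted p = 4.67e-04) at 2 days and 3.63 (SE 0.48, adjusted p = 9.87e-07) at 3 days. Adjusted p-values of single identifiers are from edgeR's quasi-likelihood test over all 20949 identifiers tested. The step between 2 and 3 days, a log2 fold change of 1.55, was not called (adjusted p = 0.336). These fold changes are larger than those of the shares. They rest on TMM, the scaling of edgeR, which multiplies the total of each library by a factor. For replicate 2 at 3 days the factor was 0.463. There the identifier stood at 1290000 CPM beside a share of 59.9%, so CPM is not a share of counts. Flat plates of experiment 3 also had larger shares, at 36.6%, 43.1% and 43.2% at 1 day. Gel against flat plates at 1 day was not called (adjusted p = 0.951). In flat culture of experiment 4, fitted separately, its log2 fold change was -1.73 at 1 day and -3.19 at 3 days, both called. In experiment 5 it was 1.42 and 0.87, neither called (adjusted p = 0.0553 and 0.182 in that fit). SMED30027845, another of the 4, had a smaller share on the gel, at 7.13%, 16.8% and 14.7% at 1 day, 9.37%, 27.1% and 21.5% at 2 days, then 10.9% and 7.39% at 3 days, against 29.5%, 30.7% and 28.1% in uncultured cells. These shares do not overlap. Flat plates of experiment 3 at 1 day had 11.8%, 10.5% and 10.3%. With TMM scaling, which trims extreme identifiers, its log2 fold changes on the gel were -0.69, -0.22 and -0.40 at 1, 2 and 3 days. They were not called (adjusted p = 0.0619, 0.574 and 0.339).

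Fewer identifiers were detected on the gel at equal depth. Each library was thinned at random to 12815425 counts, the rounded total of the smallest one, and identifiers with at least 1 count were counted. Gel libraries had 24107, 23464 and 23358 at 1 day, 23594, 24447 and 23849 at 2 days, then 22623 and 20173 at 3 days, against 27228, 26853 and 27147 in uncultured cells. No gel library reached an uncultured one, and both libraries of 3 days were below all of 2 days. The means were 23202 ± 1339 on the gel (SD, n = 8) and 27076 ± 197 in uncultured cells (SD, n = 3), a difference of -3874 (exact two-sided permutation p = 0.00606, adjusted p = 0.0364). A larger share in the 4 most abundant identifiers leaves fewer counts for the rest, so the count was repeated with these taken out and 2842232 counts drawn. It then came to 22811 ± 757 on the gel (SD, n = 8) and 25097 ± 115 in uncultured cells (SD, n = 3), a difference of -2286 that kept gel and uncultured libraries apart (exact p = 0.00606, not adjusted). The 3 days against 2 days difference was -2565 before that step and -1158 after it. Before it, the difference was -1340 without gel replicate 2 at 3 days and -3790 without gel replicate 1 at 3 days, so its size rested on which library of 3 days was used. The part of the column run in the share and in the number detected was not tested. Within the first run alone, flat libraries at 1 day had 25497, 24779 and 26446 identifiers above 0 without thinning, against 28017, 27689 and 28415 in uncultured cells.

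**Figure D1:**
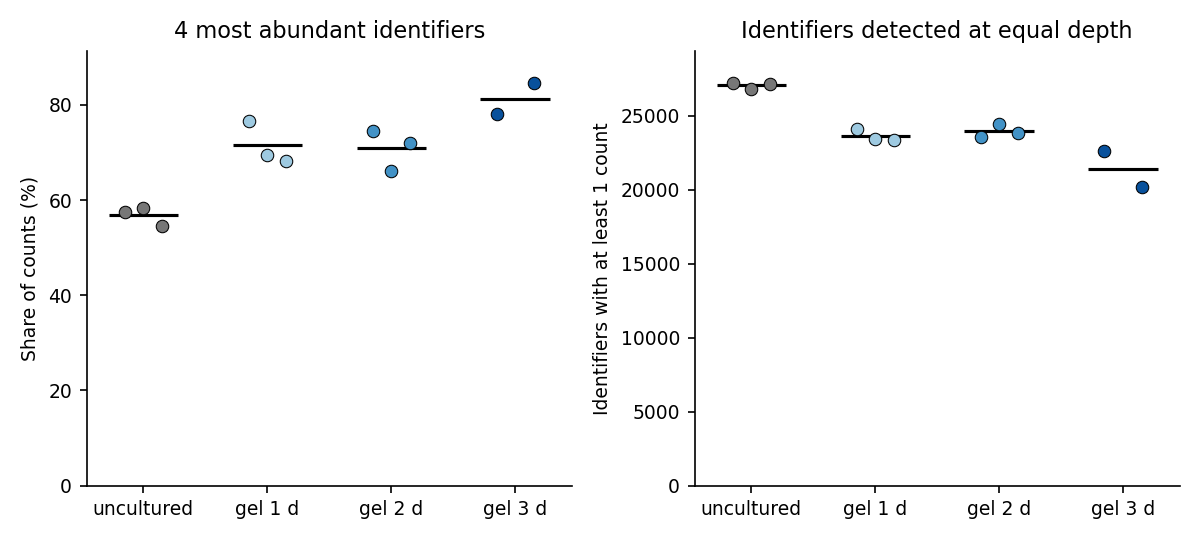
Percent of all counts of a library that the 4 most abundant identifiers held (left) and identifiers with at least 1 count after thinning to 12815425 counts (right), for uncultured cells and the gel at 1, 2 and 3 days. Points are libraries and lines are group means. Every gel library lies above the uncultured ones at left and below them at right, with both libraries of 3 days farthest away.

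The largest part of the change on the gel was present after 1 day. An identifier is called here where its adjusted p was under 0.05. At 1 day 4850 of 20949 identifiers differed from uncultured cells (23.2%), of which 2287 were higher (10.9%) and 2563 lower (12.2%). At 2 days 5589 differed (26.7%), 2550 higher (12.2%) and 3039 lower (14.5%). At 3 days 5445 differed (26.0%), 2637 higher (12.6%) and 2808 lower (13.4%). These 3 comparisons share their uncultured libraries, so their likeness is no separate evidence. From day to day the counts were of another order. The gel at 2 days differed from 1 day at 30 identifiers (0.143%), 12 higher (0.0573%) and 18 lower (0.0859%), with 1316 at an unadjusted p under 0.05. Without gel replicate 1 at 2 days, the library that stood apart, 4 were higher and 25 lower. At 3 days against 2 days edgeR called 0 identifiers, with 1606 at an unadjusted p under 0.05, while DESeq2 called 240 of the 1802 to which it gave an adjusted p, and 212 of these were higher at 3 days.

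**Figure D2:**
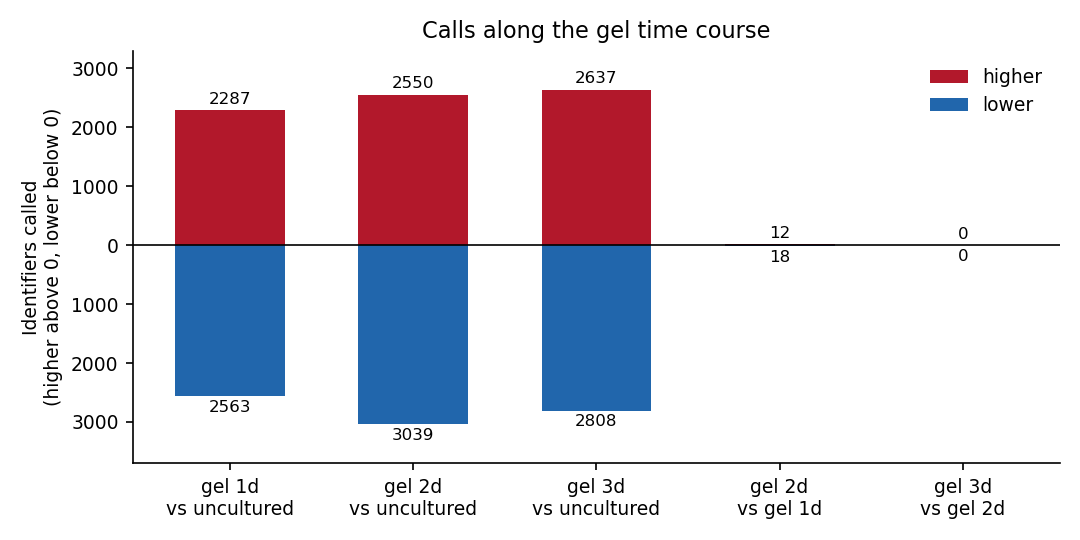
Number of identifiers called higher (red, above 0) and lower (blue, below 0) in each gel comparison, out of 20949 tested, at an edgeR adjusted p under 0.05. The bars against uncultured cells reach 2287 to 2637 higher and 2563 to 3039 lower, while 2 days against 1 day has 12 and 18, and 3 days against 2 days has 0.

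The counts against uncultured cells depended on which libraries were in the fit. With the column run as a term the calls came to 1999 at 1 day, 2638 at 2 days and 2935 at 3 days. Of these, 1844, 2414 and 2706 were also called without the term, with 0 in the opposite direction. Among the calls made without the term, 4835 of 4850, 5568 of 5589 and 5442 of 5445 kept their direction with it. Their median size on the log2 scale was then 1.12 at 1 day, against 1.25 without it, and the median SE of identifiers of at least 10 CPM was larger, at 0.27, 0.27 and 0.29 against 0.20, 0.20 and 0.23. Without gel replicate 1 at 2 days that day had 3361 calls, and at 3 days 3132 were called without replicate 1 and 3047 without replicate 2. The calls kept in every fit that left out 1 compared library numbered 2590 at 1 day (53.4%), 2901 at 2 days (51.9%) and 2064 at 3 days (37.9%).

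The split into higher and lower calls moved with the scaling, the filter and single libraries. With TMM scaling 47.2% of the calls were higher at 1 day, 45.6% at 2 days and 48.4% at 3 days. With RLE (relative log expression) scaling 1793 calls went up and 3098 down at 1 day, 1989 and 3598 at 2 days, then 2153 and 3177 at 3 days, or 36.7%, 35.6% and 40.4% up. The median log2 fold change of all identifiers was -0.10, -0.05 and -0.20 with TMM and -0.22, -0.18 and -0.30 with RLE, a shift of over 0.1 at 1 and 2 days. The direction of small changes is therefore relative to the scaling. The TMM factors themselves lay far apart. They were 0.868 to 1.146 on the gel at 1 day, 0.940 to 1.304 at 2 days, and 0.780 and 0.463 at 3 days. In uncultured cells they were 1.498, 1.429 and 1.549. Fold changes against uncultured cells thus lie above the same changes in shares of counts, most of all at 3 days. Lower calls prevailed under both scalings, but not without every library. Without gel replicate 1 at 1 day, 1860 calls of that day were higher and 1466 lower, and without gel replicate 3 they were 1693 and 1640. At 3 days there were 1931 higher and 1201 lower without replicate 1, and 1711 and 1336 without replicate 2. At 2 days lower calls still prevailed without replicate 1, with 1610 higher and 1751 lower. With no filter on low counts the higher calls prevailed on each day (2514 and 2329 lower at 1 day), and with the column run as a term they did so at 1 day (1028 and 971 lower).

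The split also followed abundance. Among identifiers below 1 CPM on average, 95 calls went up and 445 down at 1 day (6.79% of 7949 called). There were 172 and 665 at 2 days (10.5% called) and 159 and 523 at 3 days (8.58% called). Between 10 and 100 CPM the balance was the other way, with 1290 up and 879 down at 1 day (48.3% of 4488 called), 1223 and 962 at 2 days (48.7%), and 1392 and 853 at 3 days (50.0%). Among the 383 identifiers of at least 100 CPM, the first day had 70 up and 74 down, the second 67 and 105, and the third 123 and 64. The lower calls were larger than the higher ones. The median log2 fold change of higher calls was 1.03, 1.09 and 1.16 at 1, 2 and 3 days, and that of lower calls was -1.64, -1.81 and -2.19. A size of at least 2 on the log2 scale was reached by 39.1%, 44.8% and 54.4% of lower calls and by 8.66%, 12.5% and 14.3% of higher calls. The gap was smaller at 10 CPM or more, where the medians were 0.88 for higher and -1.0 for lower calls at 1 day, and 0.95 and -1.22 at 3 days. No identifier of at least 10 CPM on average in one state was at 0 in every library of the other.

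Over the 4871 identifiers of at least 10 CPM, the day-to-day changes were close to their own error. The median absolute log2 fold change against uncultured cells was 0.53 at 1 day, 0.52 at 2 days and 0.61 at 3 days, with median SE of 0.20, 0.20 and 0.23. It was 0.18 between 1 and 2 days (median SE 0.20) and 0.24 between 2 and 3 days (median SE 0.23). An absolute change of at most 0.5 held for 47.4% of them at 1 day against uncultured cells, and for 90.5% and 85.2% in the steps to 2 and to 3 days. Changes of at least 2 numbered 119, 159 and 250 against uncultured cells and 0 and 2 between consecutive days.

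**Figure D3:**
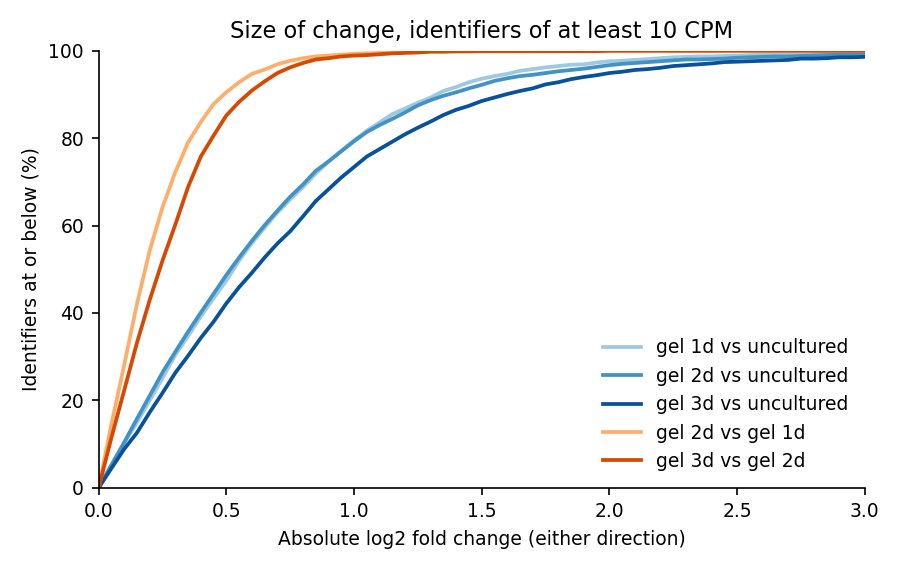
Share of the 4871 identifiers of at least 10 CPM (vertical axis, percent) whose absolute log2 fold change is at or below the value on the horizontal axis, for the 5 gel comparisons. The day-to-day curves climb to 90.5% and 85.2% at a change of 0.5, where the curves against uncultured cells lie between 42.2% and 48.7%.

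The distances between libraries had the same order. Gel and uncultured libraries were 0.751 to 0.941 apart at 1 day (median 0.859), 0.784 to 1.075 at 2 days (median 0.813) and 0.966 to 1.027 at 3 days (median 1.001). Libraries of 1 and 2 days were 0.364 to 0.522 apart, and those of 2 and 3 days 0.363 to 0.590. Within a group the distances were 0.286 to 0.402 at 1 day, 0.239 to 0.450 at 2 days and 0.402 at 3 days, against 0.224 to 0.257 in uncultured cells. The ranges between consecutive gel days thus overlapped those within a day, and no distance between gel and uncultured cells did.

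SMED30008091 was among the identifiers raised most by 1 day. It measured 27.9, 25.2 and 22.5 CPM on the gel at 1 day, 21.4, 19.4 and 13.3 at 2 days, then 17.1 and 20.6 at 3 days, against 0.618, 1.51 and 1.32 CPM in uncultured cells. In CPM every gel library was above the uncultured ones, and 2 and 3 days overlapped. The libraries of 1 day were above those of 2 days in CPM, but as shares of all counts they overlapped. Its log2 fold change was 4.43 at 1 day (SE 0.27, adjusted p = 9.45e-13), with 3.95 at 2 days and 4.01 at 3 days. The step to 2 days, a log2 fold change of -0.48, was not called (adjusted p = 0.767).

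SMED30023111 had a different course. It measured 43.2, 43.5 and 43.0 CPM at 1 day, 94.1, 86.6 and 102.0 at 2 days, then 104.0 and 118.0 at 3 days, against 2.16, 4.33 and 4.67 CPM in uncultured cells. In CPM no 2 consecutive groups overlapped. Over all identifiers tested, 15.4% did not overlap between 1 and 2 days and 27.4% between 2 and 3 days. As shares of all counts the last step went the other way. Both libraries of 3 days (0.00808% and 0.00547%) were then below all of 2 days (0.00884%, 0.0113% and 0.0109%). The log2 fold change against uncultured cells was 3.53 at 1 day (SE 0.28, adjusted p = 1.33e-10), 4.65 at 2 days (SE 0.29, adjusted p = 4.77e-13) and 4.88 at 3 days (SE 0.30, adjusted p = 1.27e-12). Between 1 and 2 days the log2 fold change of 1.13 just missed the threshold (SE 0.25, adjusted p = 0.0529), and between 2 and 3 days it was 0.23 (adjusted p = 0.909).

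SMED30013183 was also among the identifiers raised most at 2 and 3 days. It measured 65.6, 79.1 and 66.0 CPM at 1 day, 74.9, 92.7 and 96.2 at 2 days, then 90.2 and 141.0 at 3 days, against 7.15, 8.14 and 6.17 CPM in uncultured cells. In CPM consecutive gel days overlapped, and all stood above uncultured cells. As shares of all counts, 3 days (0.00703% and 0.00654%) lay below 2 days (0.00704% to 0.0121%). Its log2 fold change was 3.62 at 2 days (SE 0.22, adjusted p = 2.86e-13) and 4.02 at 3 days (SE 0.23, adjusted p = 2.24e-13).

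Among the lowest, SMED30013855 measured 1.35, 1.71 and 0.605 CPM at 1 day, 0.602, 1.89 and 1.43 at 2 days, then 0.230 and 0.117 at 3 days, against 53.7, 60.6 and 55.3 CPM in uncultured cells. The uncultured libraries lay close together, and no gel library came near them. The log2 fold change was -5.52 at 1 day (SE 0.49, adjusted p = 1.38e-09) and -8.21 at 3 days (SE 0.75, adjusted p = 1.48e-09). Both libraries of 3 days were below all of 2 days, but they rest on 4 counts in all, and that step was not called (log2 fold change -2.80, adjusted p = 0.339).

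SMED30003676 measured 0.270, 0 and 0.807 CPM at 1 day, 0.301, 0 and 0.159 at 2 days, then 0.0767 and 0 at 3 days, against 21.9, 9.72 and 27.6 CPM in uncultured cells. The uncultured libraries spread widely for this identifier, yet all stood above the gel. Its log2 fold change was -5.80 at 1 day (SE 1.14, adjusted p = 3.44e-04) and -8.56 at 3 days (SE 1.81, adjusted p = 6.41e-04). With 1 count in both libraries of 3 days together, the size of the change at 3 days is not well measured.

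At 2 days SMED30021545 and SMED30002634 were the lowest among calls of at least 10 CPM over both groups that no left-out library ended. SMED30003676, below that level, had a log2 fold change of -7.04. SMED30021545 measured 0.0502, 0.501 and 0.318 CPM at 2 days, against 25.6, 48.4 and 37.8 CPM in uncultured cells, which gave -6.92 on the log2 scale (SE 0.75, adjusted p = 2.75e-08). SMED30002634 measured 1.05, 0.0386 and 1.85 CPM at 2 days, against 47.7, 52.9 and 73.1 CPM in uncultured cells, which gave -5.94 (SE 1.24, adjusted p = 5.45e-04). Neither overlapped the uncultured libraries. With the column run as a term, SMED30002634 was no longer called and its log2 fold change was -2.24.

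The 30 identifiers called between 1 and 2 days were mostly of 10 CPM or more, with 11 of the 12 higher and 16 of the 18 lower ones at that level. The median log2 fold change was 1.02 among the higher and -1.14 among the lower. Of the 12 that were higher at 2 days, 11 stood above uncultured cells at 1 day, and of the 18 that were lower, 13 stood below. Differences of any size counted, down to a log2 fold change of 0.02. Over all identifiers 46.2% stood above at 1 day, and 55.6% at 10 CPM or more. The counts of 11 and 13 share the 1 day libraries with the choice of the 30 and are a description. On flat plates, which share no library with the gel, the same step had the same sign for 12 of 12 higher identifiers (median log2 fold change 0.70) and for 17 of 18 lower ones (median -0.95). Over all identifiers of at least 10 CPM the median of the flat step was 0.03. All flat libraries of 1 day stand in the first column run, and 2 of the 3 of 2 days in the second. Flat libraries also entered the fit that gave the 30 calls. Only 2 of the 30 calls, 1 in each direction, were kept whichever of the 6 libraries was left out, and the calls then numbered 4 without gel replicate 2 at 2 days and 5 without gel replicate 2 at 1 day. They numbered 10 without gel replicate 3 at 2 days, and 18 and 14 without gel replicates 1 and 3 at 1 day.

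Those 2 identifiers were SMED30009778 and SMED30034512. SMED30009778 measured 51.4, 41.1 and 40.0 CPM at 2 days, against 20.2, 21.3 and 19.0 CPM at 1 day, with 51.8 and 32.1 at 3 days and 14.5, 14.9 and 13.4 CPM in uncultured cells. In CPM it was higher at 1 day than in uncultured cells and higher again at 2 days, with no overlap. As a share of all counts, 1 day (0.00176%, 0.00226% and 0.00217%) overlapped uncultured cells (0.00216%, 0.00213% and 0.00207%). Between 1 and 2 days it gained 1.13 on the log2 scale (SE 0.18, adjusted p = 0.00434). SMED30034512 measured 99.6, 75.0 and 89.2 CPM at 2 days, against 183.0, 226.0 and 205.0 CPM at 1 day, with 66.6 and 67.8 at 3 days and 244.0, 225.0 and 239.0 CPM in uncultured cells. At 1 day it overlapped uncultured cells in CPM (log2 fold change -0.20, adjusted p = 0.314). Its shares of all counts did not, at 0.0159% to 0.0239% against 0.032% to 0.0369%. The log2 fold change between 1 and 2 days was -1.22 (SE 0.14, adjusted p = 2.70e-05). Its step to 3 days, a log2 fold change of -0.39, was not called (adjusted p = 0.544).

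**Figure D4:**
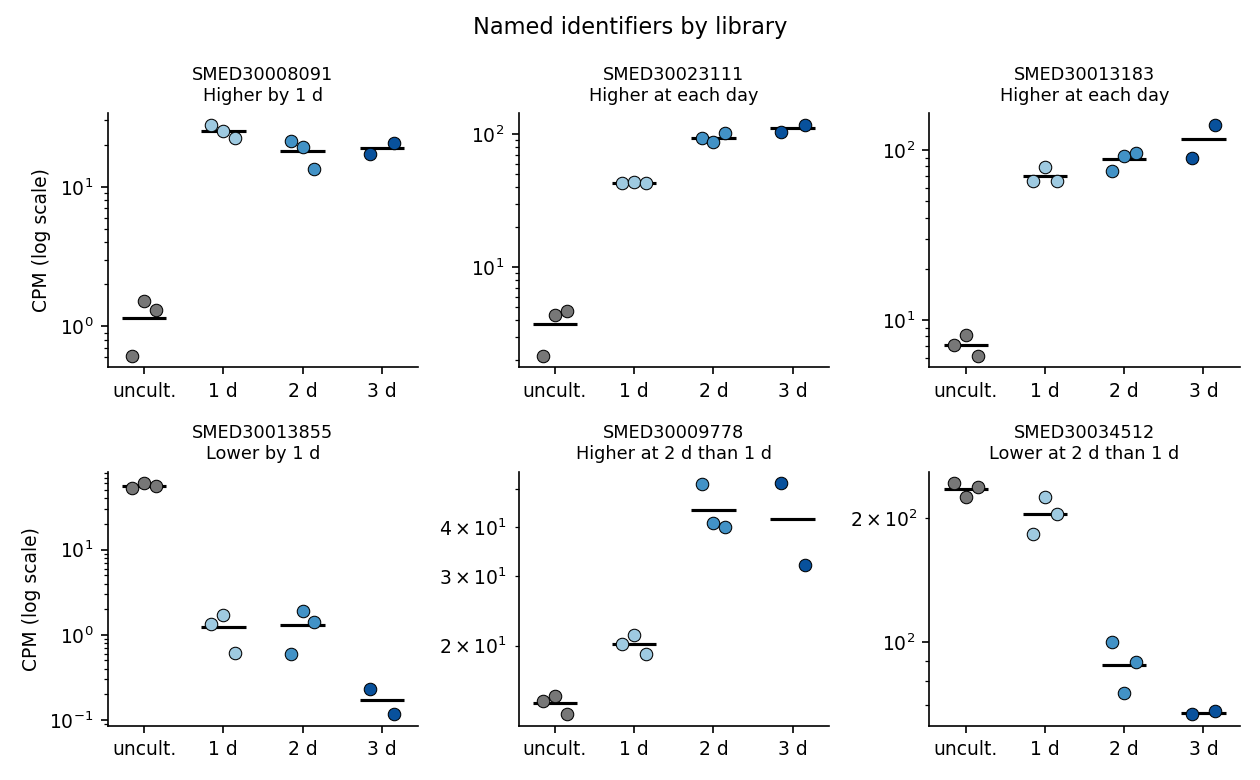
CPM by library (log scale, a different range in each panel) of 6 identifiers in uncultured cells and on the gel at 1, 2 and 3 days. Points are libraries and lines are group means. SMED30008091 is at its highest at 1 day, SMED30023111 stands higher at 2 days than at 1 day, and SMED30034512 is near its uncultured level at 1 day and at 75.0 to 99.6 CPM at 2 days.

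A test of any difference among the 3 gel days called 137 identifiers (0.654%), and one that included uncultured cells called 5920 (28.3%). The 137 depended on single libraries, with 34 to 180 when 1 gel library was left out. The lowest counts were 34 without gel replicate 3 and 36 without gel replicate 2 at 1 day, followed by 49 without gel replicate 1 at 3 days. Without gel replicate 1 at 1 day the count was 61, without gel replicate 2 at 3 days it was 66, and without gel replicate 2 at 2 days it was 84. Of the 137, 86 had their highest mean at 1 day (62.8%), 9 at 2 days (6.57%) and 42 at 3 days (30.7%). Over all identifiers tested, these shares were 34.0%, 34.3% and 31.6%. The lowest mean was at 3 days for 74 of the 137 (54.0%), beside 43.2% of all identifiers. The middle day was thus seldom the extreme among the called identifiers. Of the 5920, 3202 were highest in uncultured cells (54.1%) and 1448 highest at 3 days (24.5%), beside 42.5% and 22.7% of all identifiers tested, so the share at 3 days was near that background. Uncultured cells were also the lowest group for 2514 of the 5920 (42.5%), beside 34.3% of all identifiers tested.

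The identifiers that moved in the first day were followed through a step that shares no library with it, 3 days against 2 days. Those higher at 1 day had a median log2 fold change of 0.12 in that step, with 63.8% above 0, and those lower at 1 day had -0.23, with 31.1% above 0. Over all identifiers tested the median was -0.09, with 43.2% above 0. As edgeR called 0 of all 20949 identifiers in the step, neither list could hold a call. At 10 CPM or more the higher list had a median of 0.14 with 67.1% above 0 and the lower list -0.13 with 35.6%, beside 0.09 and 60.4% for all. At that abundance the higher list lay close to the background, and the lower list was farther from it.

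Flat plates gave few differences from the gel. At 1 day edgeR called 0 of 20949 identifiers between gel and flat plates, with 1259 whose unadjusted p was under 0.05, and DESeq2 called 21. The step between 1 and 2 days on the gel differed from the same step on flat plates at 0 identifiers (678 unadjusted, 3 by DESeq2), and so did the step between 2 and 3 days (1283 unadjusted, 11 by DESeq2). The median absolute log2 difference at 10 CPM or more was 0.18 between gel and flat plates at 1 day, with a median SE of 0.20. For the steps it was 0.21 (median SE 0.29) and 0.24 (median SE 0.31). Differences of the size of these errors were not detectable, and the absence of calls does not show that gel and flat plates act alike. Every gel library at 1 day stands in the second column run and every flat library at 1 day in the first, and with the run as a term edgeR again called 0 identifiers at 1 day, with 1322 at an unadjusted p under 0.05.

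Flat cultures of experiments 4 and 5, which share no library with the gel, gave an outside reading of the identifiers called at 1 day on the gel. In experiment 5 after 1 flat day, the 2251 higher ones that were tested had a median log2 fold change of 0.67, with 91.2% above 0. The 2498 lower ones had -1.04, with 4.48% above 0, beside -0.10 and 45.1% over all 19362 identifiers. In experiment 4 the lower ones again had a negative median, -1.55 with 17.7% above 0. The higher ones had only 0.25 with 57.0% above 0, beside -0.15 and 46.7% over all 19249. After 3 flat days the higher ones had 0.57 with 79.6% above 0 in experiment 5, beside -0.21 and 42.8% over all. In experiment 4 they had 0.05 with 51.4% above 0, beside -0.26 and 43.7% over all. Both lists thus lay on their own side of the background in both experiments, and the higher one lay closer to it in experiment 4.

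Across identifiers of at least 10 CPM, Pearson's r between the log2 fold change on the gel and on flat plates was 0.80 for day 1 in experiment 5 (4840 identifiers) and 0.366 in experiment 4 (4849). For day 3 it was 0.742 and 0.498. Over all identifiers tested it was lower, at 0.531 and 0.34 for day 1 and 0.49 and 0.32 for day 3 in experiments 5 and 4. Identifiers are not independent replicates, and each r rests on 1 set of uncultured libraries per experiment. All r are therefore descriptions.

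In the opposite direction, the identifiers called after 3 flat days in experiment 5 were followed on the gel by library. Of 24174 identifiers tested there, 892 were called (3.69%), 539 higher (2.23%) and 353 lower (1.46%), and 515 and 353 of these were also tested in experiment 3. The median log2 difference of the 515 from the uncultured mean of experiment 3 was 0.77, 0.44 and 0.49 at 1 day, 0.98, 0.74 and 0.74 at 2 days, then 0.76 and 0.58 at 3 days, against 0.02, 0.07 and -0.10 in the uncultured libraries themselves. That of the 353 was -1.54, -1.19 and -1.33 at 1 day, -1.93, -1.58 and -1.52 at 2 days, then -1.99 and -1.86 at 3 days, against -0.07, 0.01 and 0.08. Both medians were away from 0 in every gel library. Replicate 1 was the farthest of its group at 1 and 2 days for both lists. Of the 515, 182 were called higher on the gel at 1 day, 248 at 2 days and 207 at 3 days, with 6, 3 and 4 lower. Over all identifiers 10.9%, 12.2% and 12.6% were called higher on those days. Of the 353, 246, 277 and 285 were called lower, with 4, 1 and 1 higher, and over all identifiers 12.2%, 14.5% and 13.4% were called lower. Calls were more common among abundant identifiers, of which both lists held many. At 10 CPM or more, 155 of 261 were called higher at 1 day, beside 1360 of all 4871. For the lower list it was 185 of 217, beside 953 of the 4871 called lower.

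Of the 30 identifiers called between 1 and 2 days on the gel, 8 of the 12 higher ones belonged to the 515 and 11 of the 18 lower ones to the 353, while 1 of the lower ones belonged to the 515. The lists made up 515 and 353 of all 20949 identifiers tested. They held 261 and 217 of the 4871 at 10 CPM or more, where all of these overlaps lay. The median log2 fold change in that step was 0.26 for the 515 and -0.29 for the 353, beside 0.02 over all identifiers. In the step to 3 days it was -0.20 and -0.34, beside -0.09, so the 353 had negative medians in both steps and the 515 changed sign. At 10 CPM or more, 261 of the 515 remained and had 0.11 in that last step, near the 0.09 over all at that abundance. The negative sign of the 515 thus rested on low identifiers.

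**Figure D5:**
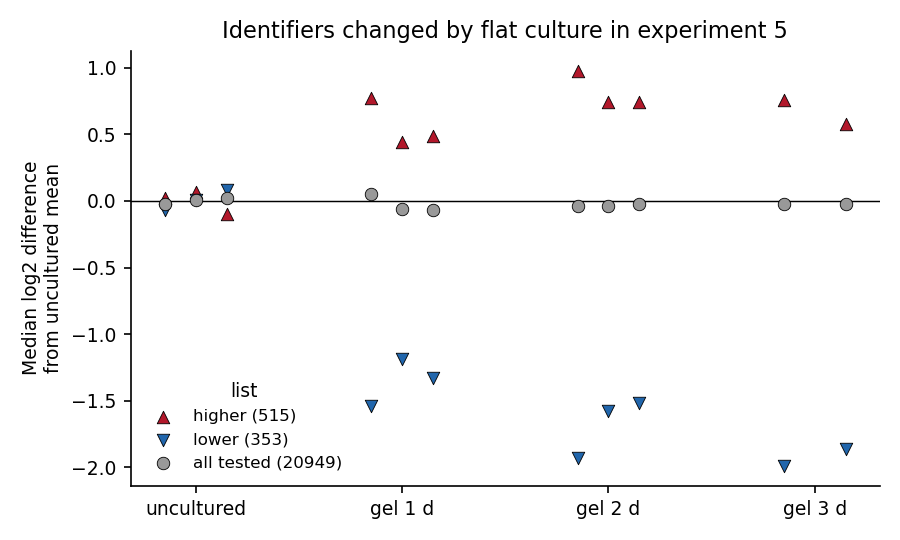
Median log2 difference from the uncultured mean of experiment 3, by library, of the 515 identifiers higher (red) and 353 lower (blue) after 3 flat days in experiment 5, beside all 20949 tested (grey), for uncultured cells and each gel day. The red medians lie at 0.44 to 0.98 and the blue ones at -1.19 to -1.99 in gel libraries, and all grey ones within 0.07 of 0.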

How the data were processed

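RNA was measured in bulk, after template-switching reverse transcription, PCR and Tn5 tagmentation per the labels' protocols, with no molecular identifiers mentioned. The authors deposited 1 table per experiment. That of experiment 3 holds estimated counts (97.7% of its non-zero values were not whole within 0.01), and those of experiments 4 and 5 hold whole counts, none of them normalized by the authors. The submitters' processing notes name kallisto 0.46.2 and R 4.0.5 but not what each did, and of the transcriptome and any filter the sources used here say nothing. The tables of experiments 1 and 2 were not used.

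Estimated counts were rounded. In R 4.3.3, edgeR 4.0.16 filtered identifiers on the groups, scaled with TMM and fitted all 9 groups of experiment 3 in one quasi-likelihood model, whose F test was two-sided. SE was taken as the size of the log2 fold change over the root of F, and the Benjamini-Hochberg threshold was 0.05. The fit was tested on simulated data. Experiments 4 and 5 were fitted separately. Library measures were compared by exact permutation tests, two-sided. Alternatives were RLE scaling, DESeq2 1.42.0, other filters, fewer groups in the fit, a replicate block and libraries left out in turn. The column run as a term was added after seeing the data.

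Named identifiers were the 2 with the greatest rise and the 2 with the greatest fall per comparison among calls of at least 10 CPM on average, with no overlap between libraries and a call kept without each library in turn. The 4 most abundant were added. Members, lists and rules were chosen with earlier results of these data known. Marker lists for neoblasts, the cell cycle and differentiated cells matched 0 identifiers, since the tables give no gene names, and no sequence is printed.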

Additional observations from a re-analysis of the deposited data

How the results depend on the processing

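For 1, 2 and 3 days against uncultured cells, the calls numbered 2618, 2661 and 2564 over identifiers of at least 10 CPM, 8028, 9021 and 8531 with only the compared groups fitted, and 1999, 2638 and 2935 with the column run as a term, chosen after seeing the data. Without any filter the split turned, to 2514 higher and 2329 lower, 2943 and 2675, and 2834 and 2614. For 2 days against 1 day the count was 129 without a filter, 97 at 10 CPM or more, 119 with the compared groups only and 179 by DESeq2. For 3 days against 2 days it was 125, 2, 23 and 240. Gel against flat plates at 1 day gave 102, 2, 18 and 21, and 3 with a replicate block by column number. The gel and flat steps to 2 days differed at 38 identifiers without a filter and 3 by DESeq2, and the steps to 3 days at 60 and 11. Any difference among gel days gave 428 without a filter, 321 at 10 CPM or more and 531 with the compared groups only. Including uncultured cells, it gave 2993 at 10 CPM or more, 9755 with the compared groups only and 2265 with the run term. The cause was not tested. At a minimum of 5 CPM, 1 identifier was at 0 in every uncultured library.

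Leaving out 1 library gave 3326 to 4047 calls at 1 day, 3361 to 4632 at 2 days and 3047 to 4413 at 3 days against uncultured cells. It gave 4 to 29 for 2 days against 1 day, 0 to 8 for 3 days against 2 days (8 without gel replicate 1 at 3 days), and 34 to 180 and 4085 to 5614 for any difference without and with uncultured cells. The 3 comparisons with flat plates stayed at 0. The difference in the share of the 4 most abundant identifiers between 2 days and 1 day was -0.633 percentage points and ranged from -2.45 to 1.97. It was 1.75 without gel replicate 2 at 2 days and 1.97 without gel replicate 1 at 1 day.

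Same-numbered libraries deviated together in some pairs only. Their deviations correlated at -0.245 to 0.449 over 15 pairs (median -0.0261), with 5 above 0.1. Over 30 pairs of different number the median was 0.0328, with 9 above 0.1. Between 1 and 2 days on the gel, replicates 1 correlated at 0.449, replicates 2 at 0.399 and replicates 3 at -0.123. The highest pair of different number reached 0.484. The numbers were not taken as pairs, and whether they mark shared cultures was not settled. With a replicate block by title number the calls were 4646, 5337 and 5187 for 1, 2 and 3 days against uncultured cells, 21 for 2 days against 1 day, 0 for 3 days against 2 days, 0 for each comparison with flat plates, and 106 and 5593 for any difference without and with uncultured cells. Of the named identifiers' values under alternatives, 185 kept direction and call, and 1 was no longer called. Identifiers named for a comparison had to keep their call without each library in turn. The part of that tally from left-out libraries was therefore fixed by the rule. After the 4 most abundant identifiers, as few as 2842232 counts of a library remained, which limits what is detectable among low identifiers.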
